A study of Homo sapiens with 32 samples.

Results

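The 8 genes described here are grouped as macrophage secreted and lysosomal protein genes: LYZ, CHI3L1, CES1, CTSS, LGALS3, GPNMB, MMP9 and TIMP2. CES1 differs from that name, as its protein is one of the endoplasmic reticulum. These members are 8 of the 19775 genes that a probe set with a single gene symbol represented on the arrays. For each gene the probe set with the highest mean level over the 32 cell lines was used, out of 17 probe sets that carried 1 of the 8 symbols. The samples were 32 established cell lines derived from human acute myeloid leukaemia (AML), whose total RNA was measured on Affymetrix arrays. Each line had 1 array and no replicate, so the spread within a line is unknown and neighbours in an order of levels could not be told apart by a test. The design text gives the purpose as relating expression to the response to inhibitors of the PIM kinases; drug response was not used here, and the level of each PIM kinase gene was set against the members instead. RPMI was the stated medium of 22 lines, and 1 of these, F-36P, also received IL-3 at 5 ng/ml. IMDM was stated for 4 lines (SH-2, OCI-M1, SHI-1 and OCI-M2). Alpha-MEM with GM-CSF or SCF was stated for OCI-AML2, OCI-AML3 and OCI-AML5, without saying which line had which cytokine. The protocol names no medium for MV4-11, MOLM-16 or MOLM-13. All media held fetal bovine serum. HL-60 and PLB-985, and KG-1 and KG-1A, are pairs of sublines, so each pair was averaged into 1 unit for every model and correlation, which left 30 units.

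Mononuclear phagocytes take up particles and break them down in lysosomes with acid proteases such as cathepsin S, and they release lysozyme, lectins and matrix-degrading enzymes. Many of these genes are switched on late in monocytic or granulocytic maturation, so AML lines arrested at different stages and in different lineages can differ in them. TIMP2 belongs to the same theme from the opposite side: it inhibits matrix metalloproteinases, the family to which MMP9 belongs.

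Levels are log2(signal + 16), where signal is the deposited array intensity. The median of all probe sets on all arrays, 6.73 on this scale, served as the level below which a signal was treated as low. A fold whose lower end lay under it was computed against it and is written as "at least". Levels of different genes come from different probes and are not compared with each other. The median signal of an array lay between 68.2 and 115.4 on 30 arrays, at 198.4 on NOMO-1 and at 243.3 on GF-D8. The GAPDH 3'/5' ratio, a sign of RNA integrity and labelling, was 0.871 to 1.24 on 24 arrays and 2.42 to 7.08 on the other 8 (THP-1, GF-D8, NB-4, GDM-1, NOMO-1, HL-60, MOLM-13 and ML-2).

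LYZ encodes lysozyme, which cleaves bacterial cell walls and is a major secreted product of monocytes and macrophages. Its level ran from 4.25 in HNT-34 through a median of 12.58 to 15.02 in MOLM-13, a difference of at least 314-fold. It was above the array's own median in 29 of 32 lines and above the array's 90th percentile in 22. The 3 lines below their array's median were HNT-34, KG-1A at 4.56 and GF-D8 at 4.73. Median LYZ was 14.26 on the 8 arrays of high GAPDH ratio and 11.95 on the 24, and the chosen probe set exceeded the other LYZ probe set by a median of 3.71 and 2.01. In RNA from a whole culture, fewer cells with LYZ and less LYZ RNA per cell cannot be told apart, and this holds for every gene below. Lines with high erythroid markers also had LYZ above the array's median: it was 12.76 in F-36P, 12.39 in OCI-M1, 13.09 in SET2 and 11.41 in HEL, whose mean levels of 12 erythroid genes were 10.84, 10.41, 11.65 and 11.08. MOLM-16 and OCI-M2, with erythroid means of 10.90 and 11.35, had LYZ at 13.64 and 10.19. OCI-M2 alone of these lines did not exceed the array's 90th percentile.

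CHI3L1 encodes a secreted chitinase-like glycoprotein (YKL-40) that binds chitin without cleaving it and is produced by maturing macrophages and neutrophils. Its lowest level was 4.10 in OCI-M2, its median 7.79 and its highest 14.43 in THP-1, at least 209-fold above the low lines. Only 18 lines exceeded their array's median, and 11 exceeded the 90th percentile. THP-1, PL-21 (14.25), SHI-1 (13.94) and SKM-1 (13.11) stood at the top, and 12 lines lay between 4.10 and 4.51. CHI3L1 ranked 9 among 15455 tested genes by standard deviation over the 30 units (3.73), where the median gene had 0.80.

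Upstream sequence of CHI3L1 is shown because this gene had the widest spread among the members; RefSeq promoter records (GRCh38.p14) matched 3 of the 8 symbols, CHI3L1, GPNMB and LGALS3. It is the 250 bases before the start on the minus strand, chr1:203186705-203186954, printed 5′ to 3′ in the direction of the gene, with capitals for a TATA box.
CHI3L1: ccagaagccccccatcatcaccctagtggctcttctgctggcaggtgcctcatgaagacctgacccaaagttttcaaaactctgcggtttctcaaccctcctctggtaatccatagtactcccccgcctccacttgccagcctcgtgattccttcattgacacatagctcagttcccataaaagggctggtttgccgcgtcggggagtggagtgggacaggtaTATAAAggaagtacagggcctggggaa
The letters TATAAA lie 27 to 22 bases before the start. They were searched on both strands, as were the PU.1 core GAGGAAG, the C/EBP core (TTGCNNAA), the AP-1 site TGANTCA, the E-box TCACGTG read by TFEB and TFE3, and the MITF M-box TCATGTG. In 35116 RefSeq promoter windows of this length TATAAA occurred in 10.7%, the PU.1 core in 11.2%, the C/EBP core in 9.05%, the AP-1 site in 6.57%, the TFE E-box in 3.31% and the M-box in 2.52%. No other of these motifs matched in the CHI3L1 window.

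CES1 encodes a carboxylesterase of the endoplasmic reticulum that hydrolyses esters and amides and is abundant in liver and in monocytes and macrophages. Its level ran from 4.40 in F-36P through a median of 7.94 to 13.94 in NOMO-1, at least 149-fold. The lines fell on either side of a gap: 16 lines lay at 9.04 or above, down to MOLM-16, and the next, GDM-1, was at 6.84. MOLM-13 (13.64), THP-1 (13.12), OCI-AML2 (12.89) and OCI-AML3 (12.67) followed NOMO-1. CES1 ranked 14 of 15455 tested genes by standard deviation (3.39). The human genome holds the related pseudogenes CES1P1 and CES1P2 beside it, and whether this probe set also reads their transcripts was not tested.

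CHI3L1 and CES1 were high in many of the same lines. Of 32 lines, 14 had both above the array's median, 12 had neither, 4 had CHI3L1 alone (KG-1A, OCI-AML5, FKH-1 and GF-D8) and 2 had CES1 alone (EOL-1 and MOLM-16). EOL-1 had CES1 at 11.18 beside CHI3L1 at 4.19. Over the 30 units Pearson's r was 0.81 and Spearman's rho 0.78, the highest of the 28 pairs of members, and CES1 ranked 4 among the 15454 other genes ordered by r with CHI3L1. The points share no library, but arrays of high GAPDH ratio lay toward the upper end: median CHI3L1 was 11.66 on the 8 arrays and 5.12 on the 24, and median CES1 10.94 and 5.76. Without those arrays r was 0.78 over 23 units. Within the 16 units above the widest gap in CHI3L1 r was 0.71. In the 14 units below it CHI3L1 was under the median of all values, where signals have no usable order.

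**Figure D1:**
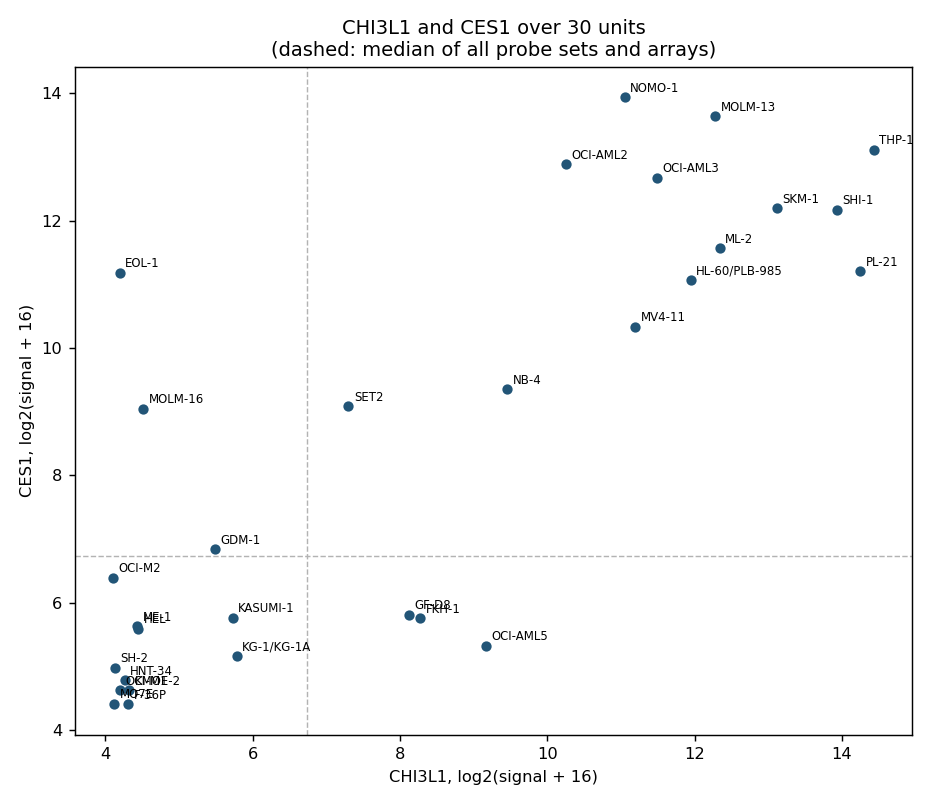
CHI3L1 (x axis) against CES1 (y axis), both as log2(signal + 16), with 1 point per unit and dashed lines at 6.73, the overall median. Most units lie at the upper right or the lower left; EOL-1 and MOLM-16 have high CES1 with CHI3L1 of 4.19 and 4.51.

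CTSS encodes cathepsin S, a lysosomal cysteine protease that trims the invariant chain during antigen presentation. It was the least variable member, with a standard deviation of 0.98, and it was above the array's median in all 32 lines. The lowest level was 7.51 in MO7E, the median 10.19 and the highest 11.87 in MOLM-13, a 20.6-fold range. KG-1A, at 7.52, lay next to it, and GF-D8 followed at 8.72. THP-1 (11.65), OCI-AML2 (11.59) and OCI-M1 (11.31) followed MOLM-13. The line with the highest CTSS changed with the probe set, a comparison made after the values were seen. MOLM-13, an array of high GAPDH ratio, was at 9.68 and 9.35 in the other CTSS probe sets, whose highest lines were OCI-M1 (11.38) and OCI-AML2 (10.48). The chosen probe set exceeded the former of these by a median of 2.01 on the 8 arrays of high GAPDH ratio and 0.37 on the 24. MO7E was lowest in all 3.

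LGALS3 encodes galectin-3, a lectin that binds galactosides and leaves the cell without a signal peptide. Levels ran from 5.27 in SKM-1 through a median of 7.72 to 12.07 in OCI-AML3, at least 40.7-fold. NOMO-1 (12.03) and SET2 (11.91) lay next to OCI-AML3, followed by SHI-1 (11.48), OCI-AML2 (11.35) and ML-2 (10.95). Its median was 10.01 on the 8 arrays of high GAPDH ratio and 7.41 on the 24, and the part of that ratio in the order of lines was not tested. SKM-1, lowest in LGALS3, had CHI3L1 at 13.11 and CES1 at 12.19. The other LGALS3 probe set had an r of 0.66 with the chosen one over the 32 lines and exceeded the array's median in only 3. It was highest in NOMO-1 (8.93) and GF-D8 (8.23), with OCI-AML3 at 6.71, so the line with the highest LGALS3 changed with the probe set.

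GPNMB encodes a glycoprotein of lysosomal and melanosomal membranes whose outer part can be shed. Its level was 5.74 in MOLM-13 at the lowest, 6.76 at the median and 11.10 in OCI-AML5 at the highest, at least 20.7-fold. Only OCI-AML5 exceeded its array's 90th percentile, followed by OCI-AML2 (10.18), KG-1A (9.46) and SET2 (8.88). The second GPNMB probe set on the array was also highest in OCI-AML5 (11.31), with OCI-AML3 at 8.37 and OCI-AML2 at 7.99, and at or below 6.60 in every other line, KG-1A included. KG-1A was therefore high in 1 of the 2 probe sets.

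The member most like GPNMB was LGALS3, with r 0.51 and rho 0.43 over the 30 units, and r 0.61 over the 23 units without arrays of high GAPDH ratio. Their upstream windows of 250 bases, on the plus strand, are shown for comparison, at chr7:23246525-23246774 for GPNMB and chr14:55129002-55129251 for LGALS3. Capitals mark the AP-1 site and the M-box.
GPNMB: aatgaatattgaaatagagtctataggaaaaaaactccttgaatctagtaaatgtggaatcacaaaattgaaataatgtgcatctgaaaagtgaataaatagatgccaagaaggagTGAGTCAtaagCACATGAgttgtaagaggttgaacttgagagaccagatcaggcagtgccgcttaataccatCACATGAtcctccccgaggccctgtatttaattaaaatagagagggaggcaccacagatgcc
LGALS3: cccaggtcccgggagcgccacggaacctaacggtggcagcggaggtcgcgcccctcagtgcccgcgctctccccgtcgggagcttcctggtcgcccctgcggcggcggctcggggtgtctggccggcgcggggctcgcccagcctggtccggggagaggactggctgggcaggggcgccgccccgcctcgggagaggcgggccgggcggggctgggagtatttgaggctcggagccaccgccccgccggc
In GPNMB the AP-1 letters TGAGTCA lie 134 to 128 bases before the start, and the M-box, read on the reverse strand as CACATGA, lies at 123 to 117 and at 62 to 56, so no match overlaps another. None of the 6 motifs matched in the LGALS3 window, which is 78.8% G and C against 38.8% in GPNMB. Over the 30 units the r of GPNMB with MITF was 0.04. GPNMB was not above its array's median in 13 lines, and whether MITF acts on GPNMB was not tested.

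MMP9 encodes gelatinase B, which degrades denatured collagen and type IV collagen. Levels ran from 6.43 in HL-60 through a median of 7.44 to 12.23 in NB-4, at least 45.4-fold. NB-4, SKM-1 (11.41) and GDM-1 (11.27) stood apart: the next line, HNT-34, was at 9.46, a gap of 3.51-fold to GDM-1. The remaining lines lay between 6.43 and 9.11. NB-4 and GDM-1 are arrays of high GAPDH ratio, while SKM-1 is not.

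TIMP2 encodes a secreted inhibitor of metalloproteinases, and in the chosen probe set its lines also fell on either side of a gap. It ran from 4.29 in HEL through a median of 9.36 to 12.48 in SH-2, at least 53.8-fold. At 7.94 or above lay 22 lines, and at 6.37 or below lay 10. The 10 were HEL, MOLM-16, KMOE-2, OCI-M1, F-36P, OCI-M2, MO7E, KG-1A, SET2 and KG-1. The other TIMP2 probe sets had an r of 0.96 and 0.94 with the chosen one over the 32 lines. The former placed NOMO-1 at 5.42, below OCI-M1 at 5.57, and HL-60 at 6.75. The latter placed HNT-34 at 4.66 and was highest in THP-1 (10.00). The gap and the lines on either side of it therefore depend on the probe set, and the splits below use the chosen one.

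**Figure D2:**
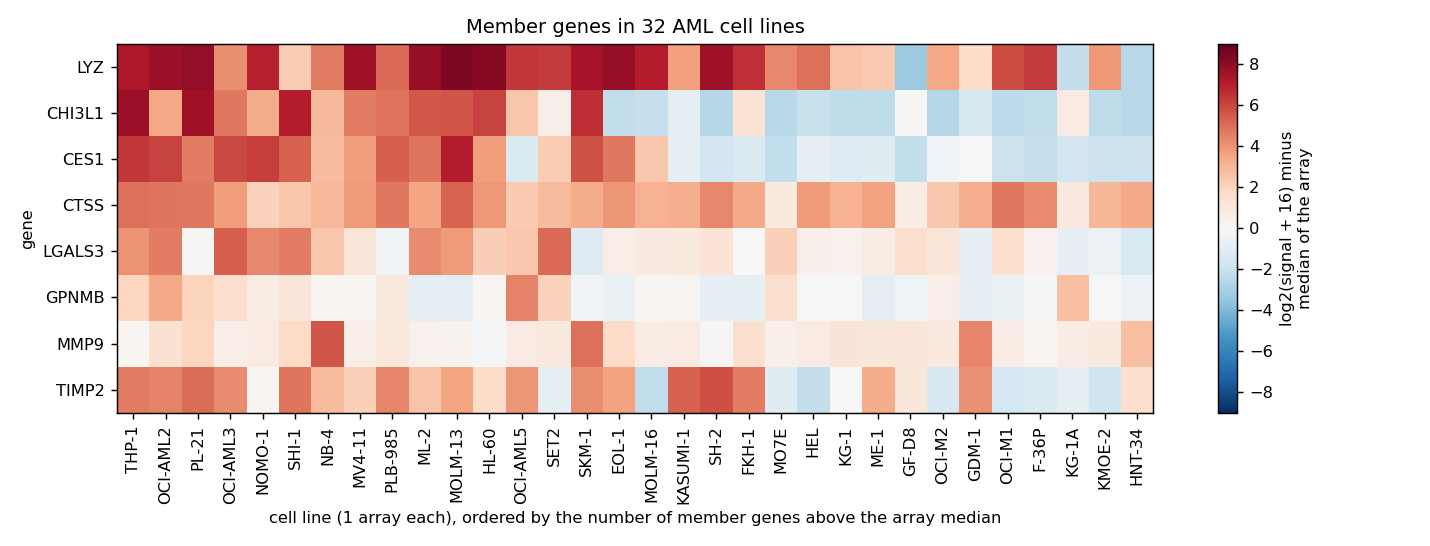
Level of each member (rows) in each of the 32 lines (columns), as log2(signal + 16) minus the median of that array, coloured from blue below the median to red above it. The lines are ordered by the number of members above the array's median, from 8 in 8 lines to 3 in KMOE-2 and HNT-34; CTSS is above it in all 32 lines.

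Taking the members per line, 8 lines had all 8 above the array's median (THP-1, OCI-AML2, OCI-AML3, PL-21, NOMO-1, SHI-1, NB-4 and MV4-11), 6 lines had 7, 4 had 6, 8 had 5, 4 had 4 and 2 (KMOE-2 and HNT-34) had 3. Some of these values lay barely above the median: MMP9 by 0.18 in THP-1, GPNMB by 0.21 in NB-4 and 0.24 in MV4-11, and TIMP2 by 0.19 in NOMO-1. The share of all genes above the array's median was not computed, so the counts have no baseline and do not show that the members go together. THP-1 had 6 members above the 90th percentile, the most of any line, and OCI-AML2, PLB-985, PL-21 and OCI-AML3 had 5 each. The share of all genes above the 90th percentile was not computed either. Each gene's probe set was also chosen for its high mean, so these counts have no baseline. The lowest r of the 28 pairs was -0.28, for LYZ and MMP9. LYZ and CTSS had an r of 0.51, CES1 and LGALS3 0.56, and CHI3L1 and TIMP2 0.55. Over the 23 units without arrays of high GAPDH ratio these were 0.40, 0.37 and 0.60.

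Genes most like each member were ordered by Pearson's r over the 30 units. For LYZ they were NXT2 (0.69), S100A6 (0.68) and HEBP2 (0.67). CHI3L1 was followed by MSRB1 (0.84), RASSF4 (0.81) and C3 (0.81). CES1 had PHACTR3 (0.85), MOSPD3 (0.83) and CPM (0.81). CTSS had IGF2R (0.66), the receptor that carries lysosomal enzymes to the lysosome, TMEM30A (0.65) and FRY (0.64). LGALS3 had MS4A14 (0.73), SYT17 (0.69) and SHROOM1 (0.69). GPNMB was followed by PDE7B (0.74), MIR210HG (0.68) and RLF (0.65). MMP9 had UCHL1 (0.70), RBP4 (0.70) and FCN1 (0.69) by Pearson's r, while Spearman's rho was 0.37, 0.41 and 0.65. FCN1 is also in the list of monocyte and macrophage markers used below, and RNASE2 in that of neutrophil markers. TIMP2 was most like RNASE2 (0.87), CITED4 (0.86) and PTPRE (0.86). Because TIMP2 splits the units, r with RNASE2 is also given within the 21 units above the gap, where it was 0.42. In the 9 units below it TIMP2 was under 6.73, so no r is given.

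Marker genes of other lineages were set beside the members. The mean of 10 tested genes of a neutrophil list, which holds granule proteins and also CSF3R, the G-CSF receptor, had an r of 0.83 with TIMP2 and 0.81 with CHI3L1 over the 30 units. CES1 had 0.65 with that mean, and the remaining members had 0.12 (MMP9) to 0.41 (LGALS3). The mean of 17 tested monocyte and macrophage genes had an r of 0.77 with CES1, 0.71 with CHI3L1 and 0.59 with TIMP2. For the remaining members it was lower: 0.46 for LGALS3, 0.41 for LYZ, 0.33 for CTSS, 0.32 for GPNMB and 0.17 for MMP9. TIMP2 and the mean of 12 erythroid genes went opposite ways: HEL, OCI-M1, OCI-M2, F-36P, MOLM-16 and SET2, with TIMP2 at 4.29 to 5.99, had erythroid means of 10.41 to 11.65, while SH-2, with TIMP2 at 12.48, had 6.66. KMOE-2 (8.11), MO7E (8.68) and the KG-1 unit (7.55) had low TIMP2 with lower erythroid means. The mean of 10 tested megakaryocyte genes had an r of -0.68 with TIMP2 over the 30 units. It was 8.74 in KMOE-2, 9.20 in MO7E and 7.49 in the KG-1 unit, but also 8.17 in FKH-1, with TIMP2 at 11.63. GATA1, the erythroid and megakaryocytic transcription factor, had an r of -0.61 with TIMP2 within the 21 units above the gap. CEBPA, the myeloid factor, had 0.25. In most of these units GATA1 was under 6.73, where signals have no usable order. Its highest values among them were 10.34 in GF-D8 and 9.71 in NOMO-1, the arrays of highest median signal, where TIMP2 was 9.07 and 7.94. The r of GATA1 within the 21 units is therefore of limited use. Whether lineage accounts for the TIMP2 levels was not tested.

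Other genes of these pathways came from lists of proteases, lysosomal proteins, matrix enzymes, secreted proteins, galectins and carboxylesterases, and myeloid transcription factors. In the lysosomal protease list CTSW (highest 12.97, MO7E) and CST7 (13.33, SHI-1) varied most. LAMP2 and TFEB did so among lysosomal hydrolases and membrane proteins, with LAMP2 at 5.61 in GF-D8 and 13.13 in THP-1. TIMP3 (12.85, OCI-M1) and MMP2 (12.56, ME-1) led the matrix list. APOC1 (14.27, OCI-M1) and TGFBI (12.68, THP-1) led the secreted proteins. Among galectins and carboxylesterases LGALS3BP (12.93, OCI-M1) and LGALS12 (11.73, SKM-1) were most variable. TAL1 (13.22, HEL) and CEBPD (14.51, OCI-AML5) led the transcription factors. The median standard deviation was 1.16 in the lysosomal protease list and 2.03 among the secreted proteins.

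The PIM kinases are serine/threonine kinases that PIM inhibitors act on. For each of 15454 genes limma gave the slope of the log2 level on that of the PIM gene over the 30 units, with p-values adjusted over all genes. A slope is the change in the gene's log2 level per 1 unit of log2 PIM level.

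TIMP2 fell with PIM2, by 1.81 ± 0.44 (standard error) per log2 unit of PIM2, with limma's adjusted p at 0.0357. It was the only member to pass: 0 of 8 rose, and 1 of 8 fell, where 0.725% of all genes rose (112) and 0.757% fell (117). Without adjustment, 2 members and 2996 of all genes had a p under 0.05. PIM2 had a standard deviation of 0.87 over the units, with GF-D8 lowest at 8.17 and OCI-M1 highest at 12.06. OCI-M1 and HEL, with the highest PIM2 (12.06 and 11.09), had TIMP2 at 4.95 and 4.29. FKH-1, next in PIM2 at 10.42, had TIMP2 at 11.63, and KMOE-2, at 8.85, had TIMP2 at 4.81. In the 9 units below the TIMP2 gap TIMP2 was under 6.73, where signals have no usable order, so these units enter the fit as low values only. Pearson's r of TIMP2 with PIM2 was -0.59 over the 30 units but -0.20 within the 21 units above the gap. Keeping only units of high TIMP2 narrows its range and leaves out OCI-M1 and HEL, so a smaller r could arise from that alone. Whether the slope over 30 units rests on the split between low and high TIMP2 was not tested, and no slope was fitted within the 21 units alone. Among 12 tested erythroid genes all 12 slopes on PIM2 were positive, and HBZ, CA1, KLF1 and EPB42 rose. KLF1, an erythroid factor, rose by 1.91 ± 0.43 (limma adjusted p = 0.024), a call lost with the GAPDH covariate (1.80, 0.0779), in RPMI lines alone (1.48, 0.526) and without OCI-M1 (2.11, 0.0775), OCI-M2 (1.76, 0.0516) or HEL (1.81, 0.063). Among the 10 genes of the neutrophil list all 10 slopes were negative, and CSF3R and MPO fell. Without OCI-M1, and in RPMI lines alone, 0 genes passed in limma's test, so every one of these calls was lost; 2749 and 1384 genes then had an unadjusted p under 0.05.

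The TIMP2 call was lost without the arrays of high GAPDH ratio (-2.002, limma adjusted p = 0.0643), with that ratio as a covariate (-1.77, 0.0875) and in lines in RPMI without cytokine alone (-1.37, 0.526). It was also lost without F-36P (0.0634), OCI-M1 (0.0981), PL-21 (0.0523), OCI-M2 (0.0658), HEL (0.0888) or SET2 (0.0585), and it passed in the other 24 of 30 leave-outs. Over all 30 the slope lay between -2.06 (without FKH-1) and -1.68 (without HEL).

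**Figure D3:**
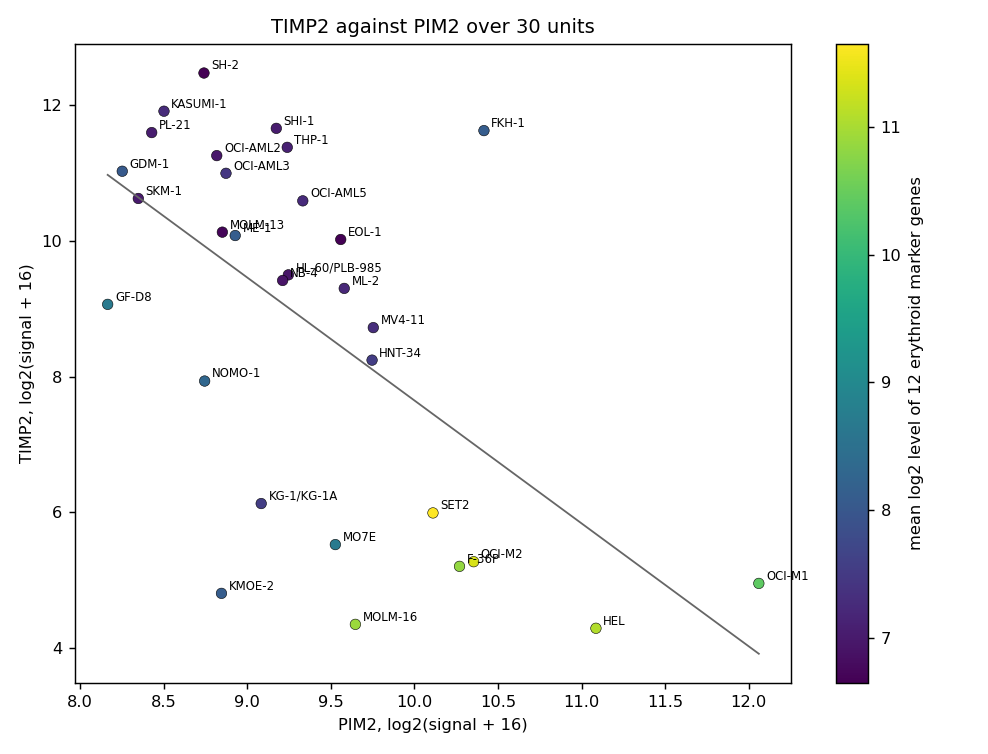
TIMP2 (y axis) against PIM2 (x axis), both as log2(signal + 16), with 1 point per unit, coloured by the mean log2 level of 12 erythroid marker genes. TIMP2 is 7.94 or more in 21 units and 6.13 or less in 9, and OCI-M1 and HEL at the far right are low; FKH-1 is high in both.

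Of the other members, CHI3L1 had a slope of -1.62 ± 0.71 on PIM2 (limma adjusted p = 0.207), CES1 -1.30 ± 0.66 (0.269), MMP9 -0.56 ± 0.28 (0.262) and GPNMB -0.29 ± 0.28 (0.56). LYZ, LGALS3 and CTSS had slopes between -0.20 and 0.40. The members' median slope was -0.43, beside -0.04 over all genes. In the pathway lists TIMP3, another inhibitor of metalloproteinases, rose by 1.33 ± 0.34 (limma adjusted p = 0.0399), and it was the only 1 of 16 matrix genes to pass. That call was lost with a pseudocount of 1 (1.36, 0.0506), with the GAPDH ratio as a covariate (1.265, 0.108), in RPMI lines alone (0.81, 0.549) and without F-36P, OCI-M1, PL-21, OCI-M2, HEL or SET2 (slopes of 1.04 to 1.34, 0.0592 to 0.203). In the list of 14 transcription factors KLF1 alone passed. In the other pathway lists none passed: 16 lysosomal proteases, 23 lysosomal hydrolases and membrane proteins, 17 secreted proteins and 8 galectins and carboxylesterases. The number of genes that passed moves with scaling: after median centring 3532 rose and 559 fell, the median slope of all genes moved from -0.04 to 0.15, and TIMP2's slope was -1.21; after quantile normalization 940 rose and 797 fell.

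With PIM1 no member passed in limma's test: 0 of 8 rose and 0 of 8 fell, where 0.00647% of genes rose (APOL4, named after its value was seen) and 0% fell. All 8 slopes were negative, of which 2 had an unadjusted p under 0.05, as 1100 of all genes did; 47.5% of all slopes were positive. All 12 erythroid genes had positive and all 10 genes of the neutrophil list negative slopes, and none of them passed. CHI3L1 had the steepest at -0.71 ± 0.28 (limma adjusted p = 0.587), and TIMP2 had -0.52 ± 0.20 (0.587). No gene of the 6 pathway lists passed.

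With PIM3 no member passed in limma's test either, where 0.278% of genes rose (43) and 0.291% fell (45). Of the 8 slopes 6 were positive and 3 had an unadjusted p under 0.05, as 2838 of all genes did; 54.5% of all slopes were positive. All 10 genes of the neutrophil list had positive slopes (median 2.06) and all 12 erythroid genes negative ones (median -1.10), and none of them passed. CHI3L1 had 2.43 ± 1.06 (limma adjusted p = 0.215), TIMP2 1.75 ± 0.76 (0.21) and MMP9 1.04 ± 0.40 (0.16). No gene of the pathway lists passed. Median centring gave 45 genes up and 1 down, and quantile normalization 515 and 541.

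Lines grown with an added cytokine were compared with 23 units whose stated medium names none. No gene passed in limma's test: 0% of 15379 rose and 0% fell, while 875 had an unadjusted p under 0.05, among them GPNMB of the members. GPNMB was 11.10 in OCI-AML5, 10.18 in OCI-AML2, 8.30 in OCI-AML3 and 6.37 in F-36P, a mean of 8.99 ± 2.10 (SD, n = 4) against 7.01 ± 1.05 (SD, n = 23). F-36P, the line grown with IL-3, lay below the mean of the lines without cytokine, and the 3 alpha-MEM lines above it. The difference was 1.98 ± 0.64, with limma's adjusted p at 0.801, and 1.275 without OCI-AML5. The other 7 members differed by -0.90 (MMP9) to 1.69 (LGALS3), and LGALS3 by 0.94 without OCI-AML3. Of all 8 members 7 were higher with a cytokine, where 45.2% of all genes were. The members' median difference was 0.88 beside -0.06 over all genes, and 1.52 without arrays of high GAPDH ratio. Cytokine, medium and line cannot be told apart for the 3 alpha-MEM lines.

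**Figure D4:**
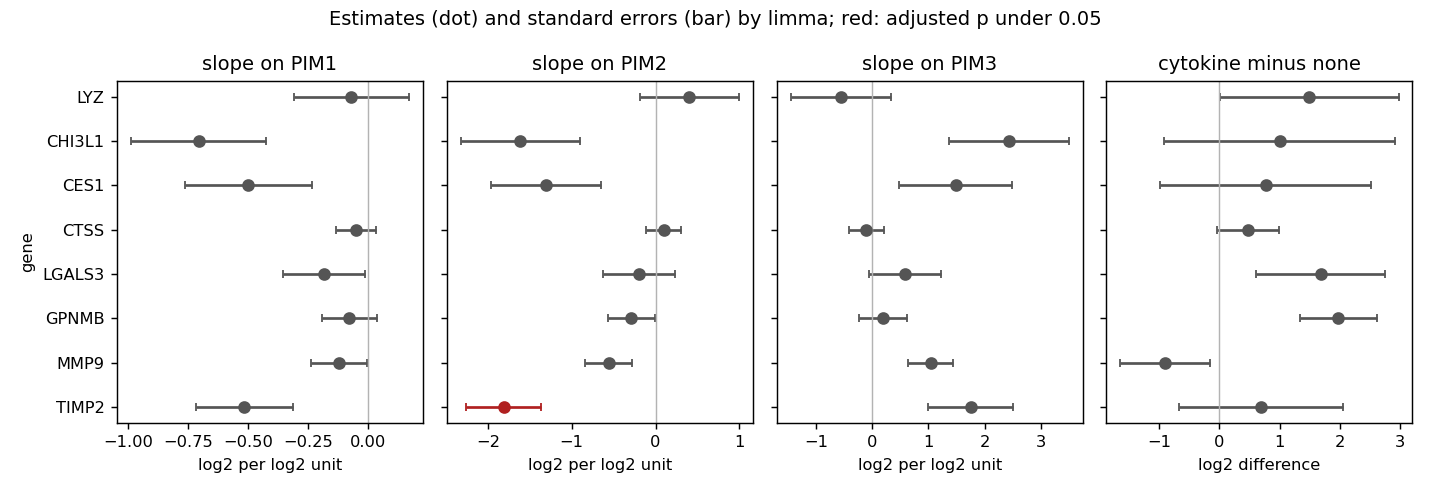
Estimated slope of each member on PIM1, PIM2 and PIM3 and its difference between lines with and without cytokine (dots), with standard errors (bars), by limma. Only TIMP2 on PIM2, in red, has an adjusted p under 0.05; its slope is -1.81.

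Sublines show how far members can differ between related lines, with 1 array each. HL-60 and PLB-985, which is regarded as a subline of it, had LYZ at 14.71 and 11.50, a 9.24-fold difference, LGALS3 at 8.75 and 6.16, and TIMP2 at 8.17 and 10.83 (6.31-fold, higher in PLB-985). The GAPDH ratio was 7.08 for HL-60 and 0.933 for PLB-985, and its part in these differences was not tested. KG-1 and its less mature subline KG-1A had LYZ at 8.93 and 4.56 and CTSS at 9.55 and 7.52 (4.08-fold). In the other LYZ probe set KG-1 and KG-1A were at 6.93 and 6.02, so the size of the LYZ difference depends on the probe set. CHI3L1 and GPNMB ran the other way. CHI3L1 was at 4.12 in KG-1 and 7.45 in KG-1A, and GPNMB at 6.40 and 9.46 (8.31-fold). In the other GPNMB probe set KG-1 and KG-1A were at 4.78 and 4.97. The median difference over all tested genes, in size and in log2 units, was 0.58 between HL-60 and PLB-985 and 0.47 between KG-1 and KG-1A.

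**Figure D5:**
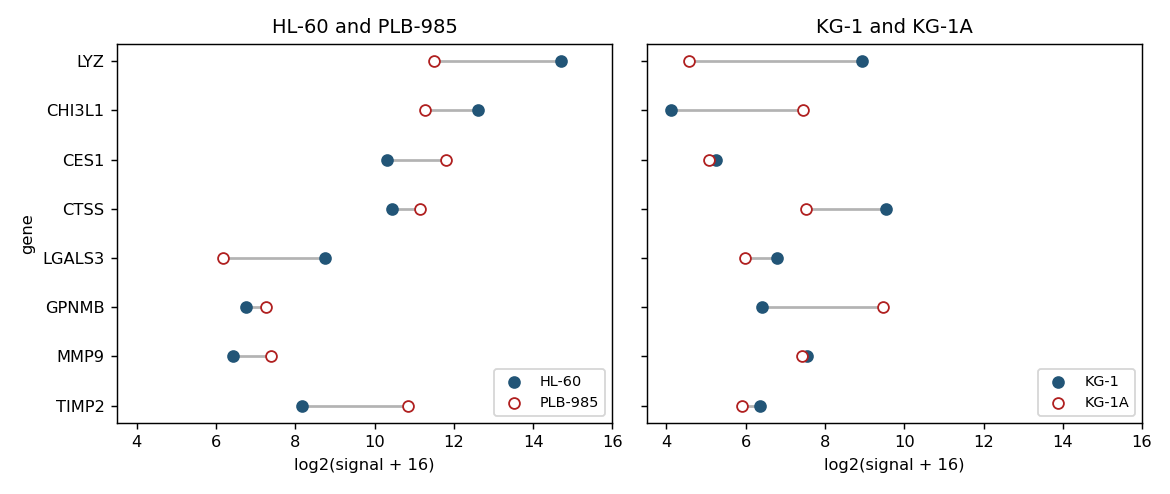
Level of each member as log2(signal + 16) in HL-60 and PLB-985 (left) and in KG-1 and KG-1A (right), 1 array per line, joined by a line. LYZ is higher in HL-60 and in KG-1, and TIMP2 is higher in PLB-985 than in HL-60.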

How the data were processed

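Total RNA from 32 cell lines was hybridised to 1 array each. Each deposited value is the linear intensity of a probe set, which the authors made with Affymetrix Expression Console, per the submitters' processing notes, and its version and the summarization method are not given in the sources used here. The mean after trimming 2% at each end was 500 to 500.1 on every array. Of 54675 probe sets, 41091 had 1 gene symbol, 1801 several, 11721 none and 62 were controls.

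The log2 of signal plus 16 was taken, and arrays were not rescaled. A gene was tested if it exceeded the median of all values, 6.73, in at least 3 units, which left 15455 genes; all 8 members passed this filter. R 4.3.3 with limma 3.58.1 (lmFit and eBayes, trend on) gave two-sided tests, adjusted by Benjamini and Hochberg's method at 0.05, after a check on simulated data. The growth protocol's entry written KG1 with a question mark was read as KG-1A. The labels do not say which cultures the arrays came from, so a p-value reflects the spread among lines alone, and precision is limited by how many arrays there are. Correlations are descriptions, given with no p.

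Named genes besides the members were the PIM genes, the 3 tested genes most like each member, in each pathway list the 2 most variable tested genes and those that passed, and GATA1 and CEBPA. MITF, APOL4 and the marker genes HBZ, CA1, EPB42, CSF3R and MPO were named after their values were seen. Members, lists and tests were chosen with earlier results of these data known, the TATA box after the data were seen. Alternatives were the pseudocount, scaling, filter, unit, GAPDH ratio, medium, probe set and leaving out each unit. Drug response was not analysed here. Plots used matplotlib 3.10.9 and pandas 2.3.3.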

Additional observations from a re-analysis of the deposited data

Results flagged for a closer look

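TIMP2 in F-36P lay far from the other lines grown with a cytokine: it was at 5.21, while OCI-AML5, OCI-AML3 and OCI-AML2 were at 10.59, 11.00 and 11.26. Its gap to the nearest of them was 0.890 of the group's range, above Dixon's critical value for a group of 4. Chance flags about 1 in 20 such groups, and 8 genes were examined.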

How the results depend on the processing

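No paired analysis was possible because each line is 1 array and the labels give no shared replicate numbers. For each count or slope that moved, the cause was not tested unless a line is named as left out. The number of genes passing with PIM1 was 1; it was 3 with a pseudocount of 1 or quantile normalization, 2 with median centring, the stricter filter (above the median in 10 units), 32 lines as units, the mean over probe sets, without arrays of high GAPDH ratio or without NOMO-1 and GF-D8, and 0 in RPMI lines without cytokine. Leaving out 1 unit gave 1 to 3. With PIM2, 229 genes passed; quantile normalization gave 1737, median centring 4091, leaving out arrays of high GAPDH ratio 123, the GAPDH covariate 16 and RPMI lines alone 0. Of the members 1 passed with PIM2, and 0 did under the last 3. Leaving out 1 unit gave 0 (OCI-M1) to 404 (KMOE-2) genes and 0 to 1 member. With PIM3, 88 genes passed; quantile normalization gave 1056, median centring 46, no filter 22, the stricter filter 152, 32 lines as units 540, without NOMO-1 and GF-D8 31 and the mean over probe sets 32, while leaving out arrays of high GAPDH ratio, the covariate and RPMI lines alone each gave 0. Leaving out 1 unit gave 3 (NB-4) to 418 (NOMO-1). With an added cytokine 4 genes passed without arrays of high GAPDH ratio, and leaving out 1 line gave 0 to 1 (OCI-AML5).

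Slopes whose sign turned had not passed the test. With PIM1, LYZ was 0.026 with median centring, 0.04 without arrays of high GAPDH ratio, 0.036 with the mean over probe sets and -0.127 to 0.056 over left-out units. CTSS was 0.006 with the mean over probe sets, and GPNMB 0.028 in RPMI lines. With PIM2, LGALS3 was 0.03 without arrays of high GAPDH ratio, 0.015 with the covariate and 0.266 in RPMI lines, and CTSS -0.087 to 0.157 over left-out units. With PIM3, LYZ was 0.499 with median centring, 0.443 with 32 lines, 0.157 without arrays of high GAPDH ratio, 0.138 without NOMO-1 and GF-D8, and -1.59 to 0.148 over left-out units. CTSS was 0.327, 0.189, 0.126 and 0.041 under the same 4 settings, 0.208 in RPMI lines and -0.407 to 0.039 over left-out units. LGALS3 was -0.057 with median centring and -0.097 with the covariate. GPNMB was -0.077 with 32 lines, -0.282 in RPMI lines and -0.039 to 0.363 over left-out units. With an added cytokine, CES1 was -0.588 to 2.242 over left-out lines. Of the 224 correlations between members computed under other settings, 205 moved by less than 0.1 and 19 by more. All 64 ranges of members over the units moved by less than the member's standard deviation. Signals below 6.73 have no usable order.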
